A study of Mus musculus with 24 samples.

Results

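The 3 libraries of NIH 3T3 cells with YAP-TFE3 were compared with the 3 libraries of NIH 3T3 cells with full-length TFE3. The aim was to describe what the fusion adds to TFE3 and which effects of TFE3 are missing or turned around in the fusion. These 6 libraries are all those of the 2 groups among the 24 NIH 3T3 libraries used here. Of 39017 gene identifiers in the count files, 14361 had a mean of at least 5 counts over the 24 libraries, and these were tested. NIH 3T3 cells are mouse fibroblasts, originally cultured from embryos and immortalized. Each construct was carried by a line made by retroviral transduction with a pBabeNeo vector. The YAP-TFE3 and TFE3 proteins carried Flag tags. The YAP-TFE3, TFE3 and empty vector (EV) lines had all been confluent for 48 h when RNA was collected. The lines that received EV, also with 3 libraries, served as the reference for the change made by each protein. The constructs were made in triplicate lines, but the labels do not say which libraries were handled together, so p-values measure the spread between these libraries. Replicate numbers came from the sample titles. For YAP-TFE3 replicate 3 another label names a different replicate of that group, and the number in the title was used.

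TFE3 belongs to the MiT/TFE family of basic helix-loop-helix leucine zipper factors, with MITF, TFEB and TFEC. These factors bind E-box sequences and are known for switching on genes of lysosomes, of the proton pump that acidifies them (the V-ATPase) and of the folliculin and Rag GTPase system that ties lysosomal nutrients to mTORC1, and in melanocytes MITF drives pigment genes. YAP has no DNA-binding domain of its own. It acts through TEAD factors, and its best known targets in fibroblasts encode matricellular proteins, cytoskeletal regulators and feedback inhibitors of the Hippo pathway. The fusion joins the TEAD-binding N-terminal portion of YAP to the DNA-binding portion of TFE3. It lacks the N-terminal portion of full-length TFE3. Gain of the YAP portion and loss of that TFE3 portion cannot be told apart in this comparison.

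Promoter letters of genes from both families are shown here to give the sequence beside their values, and the part of these letters in the results was not tested. Of the genes tested, 10201 had a promoter window in the RefSeq table for GRCm38.p6, and the 250 bases before the annotated start were searched on both strands. The letters searched were the E-box CACGTG, the longer E-box TCACGTG (which contains the shorter), and the TEAD motif GGAATG. Over all 10201 genes, 9.76% held CACGTG, 5.74% held TCACGTG and 13.0% held GGAATG. The following 3 windows come from genes that were higher with TFE3 than with EV and lower with YAP-TFE3 than with TFE3. Lamp1, a structural glycoprotein of the lysosomal membrane, has 4 copies of the longer E-box in its window, and the 2 nearest the start are printed (chr8:13159120-13159160, plus strand). Gaa encodes the lysosomal acid alpha-glucosidase (chr11:119267797-119267853, plus strand), and Rragc encodes a Rag GTPase (chr4:123917296-123917352, plus strand). Capitals mark TCACGTG on either strand.
Lamp1: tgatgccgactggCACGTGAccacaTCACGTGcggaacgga
Gaa: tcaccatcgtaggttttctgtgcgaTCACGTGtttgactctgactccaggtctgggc
Rragc: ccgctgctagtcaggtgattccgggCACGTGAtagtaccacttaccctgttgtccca
The next 3 windows come from YAP target genes that were higher with YAP-TFE3 than with TFE3. Ccn1 encodes a matricellular protein (chr3:145650058-145650113, minus strand), Ajuba a LIM protein that inhibits LATS kinases (chr14:54577795-54577850, minus strand) and Axl a receptor tyrosine kinase (chr7:25788936-25788983, minus strand). Capitals mark GGAATG on either strand.
Ccn1: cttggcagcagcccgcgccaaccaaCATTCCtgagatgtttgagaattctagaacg
Ajuba: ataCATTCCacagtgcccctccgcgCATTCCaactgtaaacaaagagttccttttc
Axl: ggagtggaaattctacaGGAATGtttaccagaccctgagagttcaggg
Each match describes letters in the window and shows no binding by a factor.

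Library totals were 19777954 to 28170637 counts with YAP-TFE3, 21414273 to 27158220 with TFE3 and 19981310 to 22419096 with EV. Levels are given as CPM, the counts scaled to a library total of 1000000 after TMM normalization, with the libraries in the order of replicates 1, 2 and 3. Tests used the quasi-likelihood method of edgeR, p-values were adjusted by Benjamini and Hochberg over the 14361 genes, and a gene was called at an adjusted p under 0.05. SE is the standard error of a log2 fold change. The endogenous genes of the 2 fusion partners did not differ by the test, and the counts do not show which protein a library carried, since the constructs are not listed apart from the mouse genes. Yap1 (ENSMUSG00000053110; chromosome 9, 7931999 to 8004596) had 156, 158 and 171 CPM with YAP-TFE3 and 179, 169.6 and 173 CPM with TFE3, and the groups overlapped (log2 fold change -0.11, adjusted p = 0.397). Tfe3 (ENSMUSG00000000134; chromosome X, 7762560 to 7775202) had 75.7 to 83.6 CPM with YAP-TFE3, 68.1 to 74.4 CPM with TFE3 and 84.6 to 93.2 CPM with EV, and was not called between any pair of these groups (direct adjusted p = 0.513). Fibroblast markers were present in every library, for example Col1a1, Fn1 and Vim. YAP-TFE3 replicate 1, which had the fewest counts of its group, lay apart from the other YAP-TFE3 libraries in many genes, and values without it are given beside counts that moved and calls that were lost when it was left out.

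Between YAP-TFE3 and TFE3, 3288 of the 14361 genes (22.9%) were called, 2050 of them higher with YAP-TFE3 (14.3% of the genes tested) and 1238 lower (8.62%). Each count of list members called higher or lower in this comparison has 14.3% and 8.62% as its background. The median absolute log2 fold change of the called genes was 0.74. Of them, 911 were higher and 268 lower by at least 1 on the log2 scale, which is 8.21% of the genes tested. For 156 called genes no TFE3 library held more than 3 counts, so that their fold can be given only as a lower bound against that floor. With these genes at their bound, 153 genes were higher and 10 lower by a log2 fold change of at least 3. The 3 libraries of YAP-TFE3 and the 3 of TFE3 did not overlap for 7050 genes (49.1%). YAP-TFE3 was higher for 27% of the genes tested and lower for 22.1%. These shares are the background for every statement below that these groups did not overlap. No such share was computed for statements that also involve the EV libraries. Genes named by class below, shared effects aside, had to have no overlap of YAP-TFE3 and TFE3. For them the lack of overlap follows from the choice and is no added support. Without YAP-TFE3 replicate 1 the called genes were 1304 higher and 895 lower. In bulk RNA, fewer cells that express a gene and less RNA per cell cannot be told apart.

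Setting each protein against EV gave 2203 called genes for YAP-TFE3 (15.3%), of which 1523 were higher (10.6%) and 680 lower (4.74%). For TFE3 it gave 485 (3.38%), of which 339 were higher (2.36%) and 146 lower (1.02%). The direct difference could therefore be divided by what each protein did to a gene. All 3 comparisons share libraries, so the classes describe the values and are not independent tests of one another. A gene was classed as added where YAP-TFE3 differed from both TFE3 and EV in the same direction and TFE3 was not called against EV. It held for 1602 genes, 1240 higher and 362 lower, with median log2 fold changes against TFE3 of 1.12 and -0.70. With genes at the floor set to their bound the first median was 1.11. A TFE3 effect was classed as missing where TFE3 differed from EV, the fusion differed from TFE3 in the opposite direction, and the fusion was not called against EV. This held for 254 genes, 194 of which had risen with TFE3. It was classed as turned where the fusion was called against EV in the direction opposite to TFE3, which held for 63 genes, 42 of which had risen with TFE3. It was shared where both proteins were called against EV in the same direction and the direct difference was not called (81 genes), and extended where the fusion was called further in the same direction (13 genes). A direct difference alone, with neither protein called against EV, was seen for 1351 genes, and 5 called genes had another combination. Without YAP-TFE3 replicate 1, 1133 genes were called between YAP-TFE3 and EV, and 852 genes were added, 34 turned and 46 shared.

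**Figure D1:**
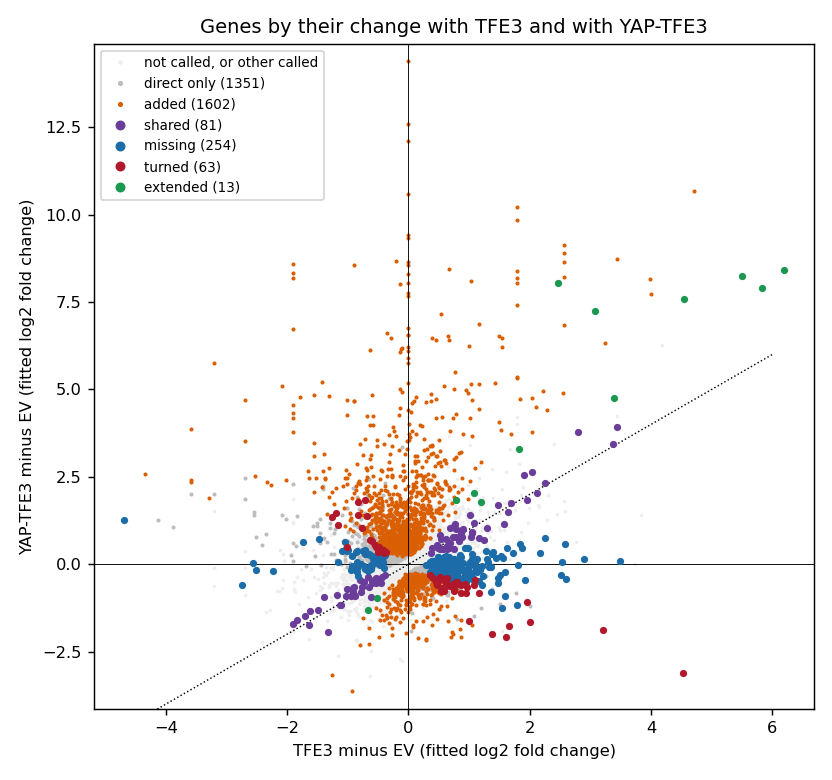
Each point is a gene tested, with the fitted log2 fold change of TFE3 minus EV on the horizontal axis and of YAP-TFE3 minus EV on the vertical axis. The dotted line marks equal change, both axes use the same 3 EV libraries, and values of genes with no counts in a group depend on the fitting. The 1602 added genes lie along the vertical axis, the 254 missing effects along the horizontal axis, and the 63 turned genes in the upper left and lower right.

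Of the 339 genes that rose with TFE3, 194 (57.2%) were missing in the fusion, 42 (12.4%) were turned, 47 (13.9%) were shared and 11 (3.24%) were extended. For 41 of them no class applied, and 4 had another combination. Of the 146 genes that fell with TFE3, 60 (41.1%) were missing, 21 (14.4%) turned, 34 (23.3%) shared and 2 (1.37%) extended. Among the 194 rises that were missing, the median log2 fold change against EV was 0.67 with TFE3 and -0.09 with YAP-TFE3. Among the 42 rises that were turned it was 0.75 with TFE3 and -0.59 with YAP-TFE3. These counts depend on the number of libraries, since without TFE3 replicate 3 only 192 genes were called between TFE3 and EV and the missing genes numbered 107. Without TFE3 replicates 1 and 2 the missing genes numbered 153 and 116, and without EV replicates 1, 2 and 3 they numbered 159, 145 and 137. With only the libraries of EV, TFE3 and YAP-TFE3 in the fit, 1140 genes were called between TFE3 and EV, and 574 were missing and 217 turned.

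The 5 largest falls from TFE3 to the fusion among the called genes were all in turned genes. Tspan10 (ENSMUSG00000039691; chromosome 11, 120442644 to 120446950), a tetraspanin, had 1.73, 3.29 and 1.15 CPM with EV, 43.6, 51.7 and 46.2 CPM with TFE3 and 0.0501, 0.167 and 0.467 CPM with YAP-TFE3. All TFE3 libraries lay far above EV and all YAP-TFE3 libraries below it, with a direct log2 fold change of -7.64 (SE 0.52, adjusted p = 1.26e-08). Gpnmb (ENSMUSG00000029816; chromosome 6, 49036546 to 49070929), a glycoprotein of melanosomes and lysosomes, had 71.2, 51.95 and 67.7 CPM with EV, 524, 669 and 563 CPM with TFE3 and 9.98, 14.7 and 27.1 CPM with YAP-TFE3. The direct log2 fold change was -5.08 (SE 0.29, adjusted p = 8.67e-11), against 3.20 for TFE3 minus EV and -1.88 for YAP-TFE3 minus EV. No group of libraries overlapped another for this gene. The X-linked neighbours Dmrtc1c2 and Dmrtc1c1 had direct log2 fold changes of -3.69 and -3.44, but they are near-identical copies whose reads may have been shared.

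Gla and Fnip2 were turned genes of the lysosome and of its signalling. Gla (ENSMUSG00000031266; chromosome X, 134588149 to 134601125), the lysosomal alpha-galactosidase A, had 182, 208 and 201 CPM with EV, 385, 340.4 and 350.0 CPM with TFE3 and 96.6, 99.99 and 137 CPM with YAP-TFE3, and the 3 groups did not overlap. Its direct log2 fold change was -1.69 (SE 0.18, adjusted p = 6.22e-07). Fnip2 (ENSMUSG00000061175; chromosome 3, 79455974 to 79567796), a partner of folliculin, had 195, 192 and 184 CPM with EV, 439, 392 and 395 CPM with TFE3 and 139.8, 130.2 and 149.6 CPM with YAP-TFE3. Its direct log2 fold change was -1.55 (SE 0.15, adjusted p = 1.55e-07), and its fall below EV passed the threshold narrowly (adjusted p = 0.0454).

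Turned genes of the opposite kind fell with TFE3 and rose with the fusion. Klf4 (ENSMUSG00000003032; chromosome 4, 55527143 to 55532466), a zinc finger transcription factor, had 14.2, 18.9 and 16.1 CPM with EV, 10.2, 9.24 and 8.16 CPM with TFE3 and 67.1, 48.96 and 53.1 CPM with YAP-TFE3. The 3 groups did not overlap, and the direct log2 fold change was 2.62 (SE 0.18, adjusted p = 8.92e-10). Igfbp6 (ENSMUSG00000023046; chromosome 15, 102144362 to 102149511), a secreted binding protein with preference for IGF2, had 91.95, 116 and 88.6 CPM with EV, 68.7, 60.3 and 52.1 CPM with TFE3 and 461, 276 and 322 CPM with YAP-TFE3, a direct log2 fold change of 2.55 (SE 0.20, adjusted p = 6.83e-09). Fbln5, a protein of elastic fibres, moved from 262, 289 and 271 CPM with EV to 148, 131 and 130.1 CPM with TFE3 and 446, 327 and 386 CPM with YAP-TFE3. Direct log2 fold changes of 2.66, 2.63 and 2.29 were found for the aminoacylase gene Acy3, the ubiquitin ligase gene Neurl1a and the receptor gene Gprc5a, which were low in the EV, TFE3 and YAP-TFE3 libraries (the highest group mean was 10.4 CPM, of Gprc5a with YAP-TFE3).

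**Figure D2:**
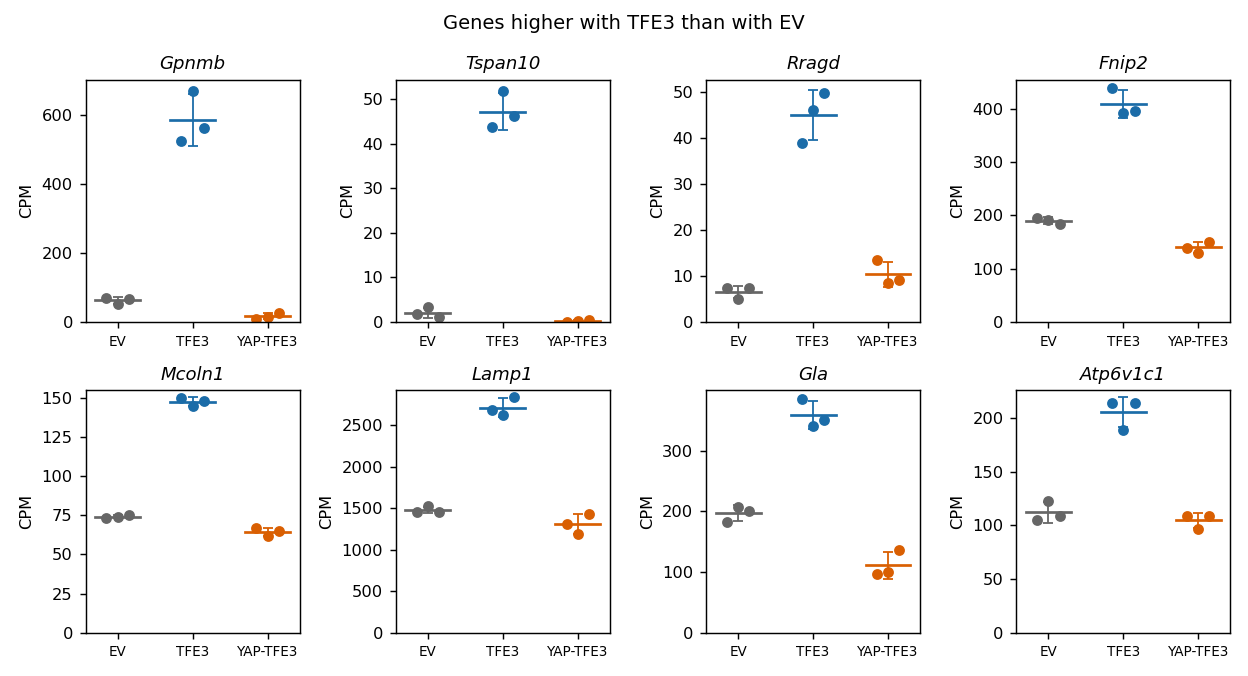
Each panel shows 1 gene in CPM on a linear axis from 0, with points for the 3 libraries of EV, TFE3 and YAP-TFE3 (replicates 1 to 3 from left to right), a line at the mean and a bar of 1 SD. In all 8 panels the TFE3 libraries are the highest, and the YAP-TFE3 libraries are below every EV library for Gpnmb, Tspan10, Fnip2, Mcoln1, Lamp1 and Gla and above every EV library for Rragd.

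Folliculin and Rag genes that rose with TFE3 were lower with the fusion. Of 12 tested genes in the list of MiT/TFE factors and folliculin-Rag genes, to which Fnip2 and Gpnmb belong, 6 were lower with YAP-TFE3 than with TFE3 and 1 was higher, with a median log2 fold change of -0.24 against 0.02 over all genes tested. Against EV, 5 rose with TFE3 and none fell (2.36% of all genes rose and 1.02% fell). Rragd (ENSMUSG00000028278; chromosome 4, 32983037 to 33022180), a Rag GTPase, had 7.3, 5.06 and 7.43 CPM with EV, 39.02, 46.04 and 49.8 CPM with TFE3 and 13.5, 8.41 and 9.21 CPM with YAP-TFE3. Its rise was partly retained, since the fusion was above EV (log2 fold change 0.65, adjusted p = 0.0456) and below TFE3 (log2 fold change -2.12, adjusted p = 2.26e-07). Rragc, whose E-box is printed above, had 292, 299 and 306 CPM with EV, 476, 428 and 487 CPM with TFE3 and 233, 232 and 262 CPM with YAP-TFE3 (direct log2 fold change -0.94, adjusted p = 3.34e-05). Fnip1 fell likewise from 196, 204 and 221 CPM with TFE3 to 121, 132 and 110.3 CPM, and Flcn, folliculin itself, had a direct log2 fold change of -0.49 (SE 0.17, adjusted p = 0.0409), a call that was lost without any 1 of the TFE3 or YAP-TFE3 libraries (adjusted p = 0.0503 to 0.127). The member that was higher was Tfec, the fourth MiT/TFE factor, with 0.0844, 0.0955 and 0 CPM in EV, 0, 0 and 0.14 CPM in TFE3 and 1.81, 0.871 and 1.1 CPM in YAP-TFE3. Mitf and Tfeb were not called, with direct log2 fold changes of 0.00 and 0.31.

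Lysosomal genes rose with TFE3 and to a lesser extent, or not at all, with the fusion. Of 39 lysosomal hydrolases and membrane proteins tested, 14 rose with TFE3 and none fell, with a median log2 fold change of 0.42. With the fusion 5 rose and 1 fell, with a median of 0.04, and directly 11 were lower and 2 higher than with TFE3, with a median of -0.32. Of the 14 rises, 9 were missing in the fusion, 1 was turned and 2 were shared. Mcoln1 (ENSMUSG00000004567; chromosome 8, 3500457 to 3515232), the lysosomal cation channel TRPML1, had 73.5, 74.01 and 74.95 CPM with EV, 149.9, 144 and 148 CPM with TFE3 and 66.6, 61.5 and 64.9 CPM with YAP-TFE3. The YAP-TFE3 libraries lay just below EV, which was not called (log2 fold change -0.21, adjusted p = 0.34), and the direct log2 fold change was -1.20 (SE 0.13, adjusted p = 7.04e-07). Lamp1 (ENSMUSG00000031447; chromosome 8, 13159161 to 13175338) had 1458, 1524 and 1452 CPM with EV, 2684, 2619.9 and 2838 CPM with TFE3 and 1315, 1187 and 1427 CPM with YAP-TFE3, a direct log2 fold change of -1.05 (SE 0.16, adjusted p = 5.12e-05). For Gaa (ENSMUSG00000025579; chromosome 11, 119267887 to 119285454) the levels were 445, 509 and 485 CPM, 746, 806 and 682 CPM and 373, 360.5 and 391 CPM in the same order, with a direct log2 fold change of -0.99 (SE 0.14, adjusted p = 1.18e-05). Direct log2 fold changes of -0.97 and -0.84 were found for the sialidase gene Neu1 and the cathepsin gene Ctsb, which overlaps Fdft1 on the other strand.

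Some lysosomal genes did not follow this pattern. Npc1, which exports cholesterol from the lysosome, had 82.4, 79.8 and 80.4 CPM with EV, 149.8, 149 and 151 CPM with TFE3 and 159, 132 and 126 CPM with YAP-TFE3. Man2b1, the lysosomal alpha-mannosidase, had 107, 109.8 and 115 CPM, 164, 182 and 165 CPM and 227, 158 and 163 CPM in the same order. Both rose with either protein, and the direct differences were not called (adjusted p = 0.685 and 0.697). The cathepsin gene Ctsl and the sphingomyelinase gene Smpd1 were the 2 members higher with the fusion, with log2 fold changes against TFE3 of 0.48 and 0.55. The call for Ctsl was lost without YAP-TFE3 replicate 1 (adjusted p = 0.176) and without TFE3 replicate 2 (adjusted p = 0.0507).

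Subunits of the V-ATPase were lower with the fusion than with TFE3. Of 16 tested, 11 were lower and none was higher (none at an unadjusted p under 0.05, and none by DESeq2), and the median log2 fold change was -0.64. With TFE3 6 rose and none fell against EV (median 0.40), and with the fusion none rose and 2 fell (median -0.13). Atp6v1c1 (ENSMUSG00000022295; chromosome 15, 38661933 to 38692446), a subunit of the cytosolic sector, had 105, 123 and 109 CPM with EV, 214, 189 and 214 CPM with TFE3 and 109, 96.7 and 109 CPM with YAP-TFE3, a direct log2 fold change of -0.97 (SE 0.14, adjusted p = 1.98e-05). Atp6v0d1 and Atp6v0b, of the membrane sector, had direct log2 fold changes of -1.12 and -1.06. The 2 subunits that fell below EV with the fusion were Atp6v1b2, at 266, 343 and 298 CPM with EV and 187, 197 and 229.7 CPM with YAP-TFE3, and Atp6v1g1, at 363, 278 and 375 CPM and 242, 203 and 265 CPM. Among autophagy genes the direct comparison called 2 higher and 1 lower of 19, with a median of -0.04. The one that was lower was Vps18, and Gabarapl2, a ubiquitin-like protein of autophagosomes, was higher at 106, 70.96 and 65.1 CPM against 37.1, 31.4 and 36.6 CPM.

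Outside the lysosome, the rises with TFE3 that were missing in the fusion included pigment cell genes. Pmel, which forms the fibrils of melanosomes, had 0.633, 1.00 and 0.619 CPM with EV, 4.16, 4.26 and 4.6 CPM with TFE3 and 0.501, 0.804 and 1.02 CPM with YAP-TFE3. Mlana, another melanosome gene, had 6.63, 7.69 and 7.83 CPM, 23.8, 19.9 and 22.9 CPM and 3.66, 3.58 and 4.5 CPM in the same order. The direct log2 fold changes were -2.46 (adjusted p = 8.12e-07) and -2.50 (adjusted p = 7.01e-05). In both genes the YAP-TFE3 and TFE3 libraries did not overlap, which the rule for naming them required. Pmel overlaps Cdk2 and Dgka on the other strand. Peg3 (ENSMUSG00000002265; chromosome 7, 6703892 to 6730431), an imprinted zinc finger gene, went from 42.6, 61.4 and 41.1 CPM with EV to 181, 177 and 192 CPM with TFE3 and 30.7, 36.97 and 38.2 CPM with YAP-TFE3, a direct log2 fold change of -2.38 (SE 0.19, adjusted p = 1.38e-08). Rnf43, a ubiquitin ligase that removes Wnt receptors, and Mep1a, a subunit of the meprin protease, fell from TFE3 to the fusion by 2.75 and 3.38 on the log2 scale. Hk2, a hexokinase, and Dusp4, a phosphatase of MAP kinases, had 168, 145 and 137 CPM and 96.4, 87.8 and 84.5 CPM with TFE3 against 106, 78.1 and 82.2 CPM and 20.7, 31.1 and 34.7 CPM with YAP-TFE3. Mx2, an interferon-induced GTPase, was below 4 CPM throughout and had a direct log2 fold change of -2.80.

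Falls with TFE3 that were missing in the fusion were fewer. Angptl4, an inhibitor of lipoprotein lipase, had 16.7, 27.9 and 11.1 CPM with EV, 7.46, 7.68 and 4.95 CPM with TFE3 and 32.9, 28.9 and 30.4 CPM with YAP-TFE3, a direct log2 fold change of 2.20 (SE 0.30, adjusted p = 1.1e-05). Crabp1, which binds retinoic acid, had 7.09, 10.98 and 6.95 CPM, 2.82, 2.49 and 2.2 CPM and 10.5, 12.9 and 15.1 CPM in the same order. In both genes every TFE3 library was below every other library of the 3 groups. Msln (mesothelin) and Aqp1 (a water channel) had direct log2 fold changes of 2.58 and 2.36, but EV replicate 2 was far above the other EV libraries, at 3.72, 22.97 and 6.33 CPM for Msln and 10.5, 31.9 and 4.65 CPM for Aqp1. Krt7, a simple epithelial keratin, was under 5 CPM in all 9 libraries, with a direct log2 fold change of 1.69.

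Cholesterol synthesis genes were lower than with EV by similar medians with YAP-TFE3 and TFE3, with fewer called for TFE3. They differed little in the direct comparison. Of 23 tested, 17 fell with YAP-TFE3 against EV and 6 with TFE3 (4.74% and 1.02% of all genes), with median log2 fold changes of -0.90 and -0.82. Directly, 1 was higher and 1 lower, with a median of -0.04. The EV libraries were widely spread, with a summed level of 2671 to 4192 CPM. It was 1716 to 2608 CPM with TFE3 and 1632 to 2358 CPM with YAP-TFE3. Pmvk, phosphomevalonate kinase, had 20.6, 30.2 and 25.1 CPM with EV, 14.8, 10.6 and 11.8 CPM with TFE3 and 10.5, 14.1 and 15.97 CPM with YAP-TFE3, and the last 2 groups overlapped (direct log2 fold change 0.13, adjusted p = 0.729). Tm7sf2, a sterol reductase, had 23.2, 35.4 and 27.9 CPM, 15.8, 12.5 and 11.9 CPM and 9.53, 14.2 and 14.7 CPM in the same order. Cyp51, Fdft1 and Srebf2, the transcription factor of the pathway, were shared as well. The 2 direct calls were Dhcr7, the last enzyme of the pathway, at 37.01, 29.96 and 29.6 CPM with TFE3 and 64.2, 46.5 and 44.2 CPM with YAP-TFE3, and Hsd17b7, at 56.5, 40.2 and 43.8 CPM and 19.8, 28.8 and 27.8 CPM. Neither was called without YAP-TFE3 replicate 1 (adjusted p = 0.215 for Dhcr7 and 0.0985 for Hsd17b7). In fatty acid synthesis genes, 1 of 11 was higher and 1 lower (median -0.08).

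Shared rises included genes of several kinds. Optn, the autophagy receptor optineurin, had 5.11, 4.49 and 5.18 CPM with EV, 15.7, 15.8 and 14.9 CPM with TFE3 and 18.6, 12.9 and 10.4 CPM with YAP-TFE3. Trim63, a ubiquitin ligase known from muscle, had 15.2, 7.21 and 15.3 CPM, 47.4, 49.97 and 48.99 CPM and 61.5, 35.2 and 38.3 CPM in the same order. Mreg (melanoregulin) rose by log2 fold changes of 2.26 with TFE3 and 2.33 with YAP-TFE3. For Vwf, von Willebrand factor, the 2 proteins gave 3.98, 4.3 and 3.63 CPM and 8.63, 9.85 and 5.18 CPM against 0.633, 0.668 and 0.398 CPM with EV. Its direct difference was not called (adjusted p = 0.0918), but it was with only the 2 groups in the fit (adjusted p = 0.00727). The chemokine gene Ccl2 fell with both, to 48.4, 38.5 and 35.1 CPM and 37.6, 59.5 and 68.8 CPM from 68.05, 162 and 91.01 CPM.

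**Figure D3:**
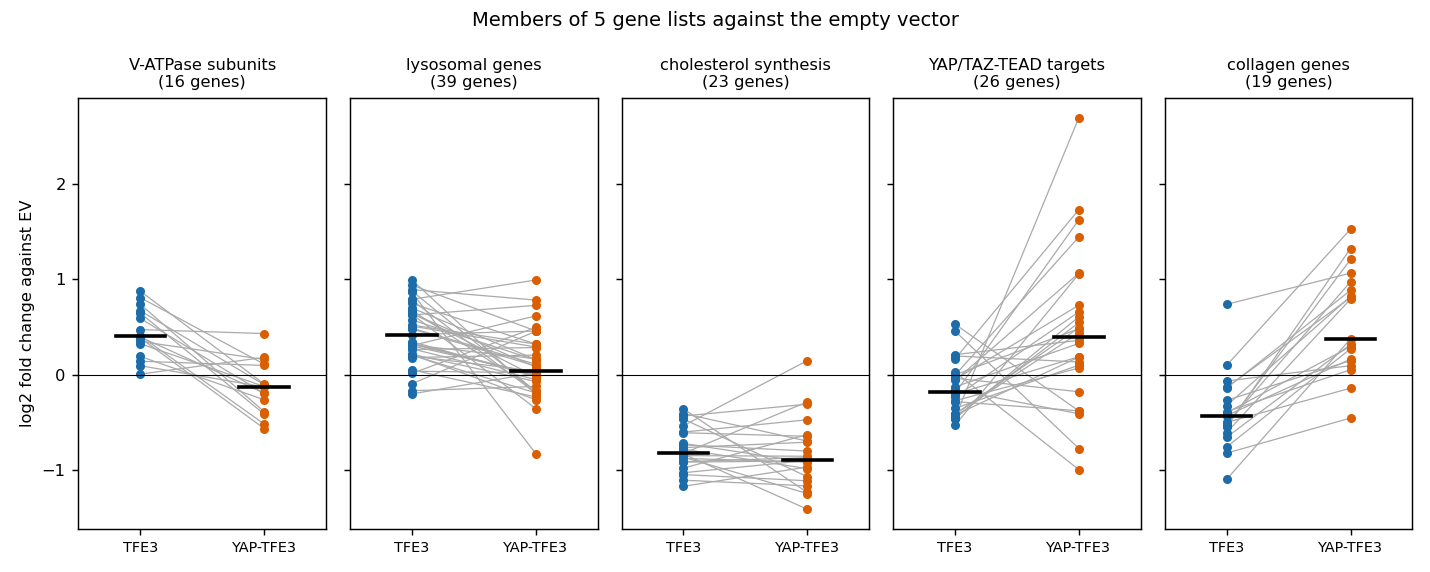
Each point is a tested member of a gene list, with its log2 fold change against EV with TFE3 on the left and with YAP-TFE3 on the right of each panel; grey lines join the values of a gene, black bars are medians, and both sides share the EV libraries. The median goes from 0.40 to -0.13 for V-ATPase subunits and from 0.42 to 0.04 for lysosomal genes, is -0.82 and -0.90 for cholesterol synthesis genes, and goes from -0.18 to 0.40 for YAP/TAZ-TEAD targets and from -0.43 to 0.37 for collagen genes.

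Of the 1240 genes that the fusion added as higher, 118 had no more than 3 counts in any TFE3 library. Cyp11b1 (ENSMUSG00000075604; chromosome 15, 74834125 to 74841643), the steroid 11-beta-hydroxylase of the adrenal cortex, had 0 counts in all TFE3 and EV libraries and 210.1, 79.2 and 58.6 CPM with YAP-TFE3, at least 963-fold higher than with TFE3. DESeq2 did not call it (adjusted p = 0.0678), and the other tested gene of the list of steroidogenic genes was not called. Crct1, of the epidermal differentiation complex, and Ptprt, a receptor tyrosine phosphatase, were also at 0 counts in TFE3 and EV and had 58.5, 20.2 and 21.6 CPM and 35.6, 18.9 and 17.1 CPM with YAP-TFE3, at least 278-fold and 199-fold higher. Lower bounds of the same kind were 70.5-fold for Lypd5, 64.5-fold for Tph1 (tryptophan hydroxylase, of serotonin synthesis), 111-fold for Als2cl, 54.1-fold for Ankrd29, 49.6-fold for Prr32 and 41.9-fold for Scel (sciellin, of the cornified envelope). In these 9 genes YAP-TFE3 replicate 1 was the highest library, above the other YAP-TFE3 libraries by more than those differed from each other. Without it the bounds were 572-fold for Cyp11b1, 174-fold for Crct1, 149.9-fold for Ptprt, 39.03-fold for Lypd5, 45.6-fold for Tph1, 75.8-fold for Als2cl, 36.8-fold for Ankrd29, 28.4-fold for Prr32 and 20.7-fold for Scel. Lyz2 (ENSMUSG00000069516; chromosome 10, 117277331 to 117282321), a lysozyme of macrophages, had 0.169, 0.382 and 0.619 CPM with EV, 0.402, 0.338 and 0.279 CPM with TFE3 and 239.7, 113 and 128 CPM with YAP-TFE3, a log2 fold change of 8.88 (SE 0.42, adjusted p = 6.14e-12). Fras1, a matrix protein of basement membranes that the study names, had 0.402, 0.0422 and 0 CPM with TFE3 and 16.4, 6.43 and 4.03 CPM with YAP-TFE3, and was at 0 in EV.

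The same library was the highest of its group in 1083 of the 1240 genes that the fusion added as higher (87.3%), against 34.6% over all genes tested. Among the 362 added genes that were lower it was the highest in 22 (6.08%), and among the 194 missing rises in 69 (35.6%). Without it 852 genes were classed as added in place of 1602, while the missing genes changed by less than 1.5 times. The part of this library in these counts beyond its removal was not tested.

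Most YAP/TAZ-TEAD targets were higher with the fusion than with TFE3. Of 26 tested, 16 were higher and 3 lower with YAP-TFE3 than with TFE3, with a median log2 fold change of 0.55. Against EV, 11 rose and 3 fell with the fusion and none was called with TFE3. Ankrd1 (ENSMUSG00000024803; chromosome 19, 36111961 to 36120099), an ankyrin repeat protein and common reporter of YAP activity, had 15.7, 31.5 and 18.6 CPM with EV, 16.5, 15.7 and 15.9 CPM with TFE3 and 204, 113 and 108 CPM with YAP-TFE3. The TFE3 libraries lay within 1 CPM of each other, and the direct log2 fold change was 3.14 (SE 0.33, adjusted p = 4.16e-07). Ccn1 (ENSMUSG00000028195; chromosome 3, 145646976 to 145649981) had 42.9, 63.8 and 61.5 CPM with EV, 62.3, 62.5 and 63.8 CPM with TFE3 and 204, 206 and 148 CPM with YAP-TFE3, a direct log2 fold change of 1.56 (SE 0.37, adjusted p = 0.0031). Its relative Ccn2 (ENSMUSG00000019997; chromosome 10, 24595442 to 24598683) had 16.7, 16.5 and 17.4 CPM with TFE3 and 39.5, 37.7 and 33.1 CPM with YAP-TFE3, and passed the threshold narrowly (1.12, adjusted p = 0.042). It missed the threshold with the replicate number as a block (adjusted p = 0.0541) and when any 1 of the 6 TFE3 and YAP-TFE3 libraries was left out (adjusted p = 0.0566 to 0.127). Against EV, Ccn2 was called neither with YAP-TFE3 nor with TFE3.

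Another target that was higher was Dlc1, a GTPase-activating protein that acts on the cytoskeleton, at 23.9, 24.5 and 22.2 CPM with EV, 23.6, 22.9 and 23.7 CPM with TFE3 and 73.8, 55.2 and 62.97 CPM with YAP-TFE3 (log2 fold change 1.45, adjusted p = 2.65e-07). Among targets with a role in the Hippo pathway itself, the angiomotin-like scaffold gene Amotl2, the LIM protein gene Ajuba, the kinase gene Lats2 and Amotl1 had direct log2 fold changes of 0.90, 0.85, 0.89 and 0.48. The call for Amotl1 was lost without YAP-TFE3 replicate 1 (adjusted p = 0.104). For Ajuba and for Axl, whose motif is printed above, the EV level lay between: Axl had 843, 816 and 847 CPM with EV, 654, 629 and 584 CPM with TFE3 and 999, 934 and 916 CPM with YAP-TFE3. Targets that were lower with the fusion were Tgfb2, a TGF-beta ligand (169, 194 and 197 CPM with TFE3 and 84.1, 67.5 and 86.9 CPM with YAP-TFE3), Fjx1, a kinase-related secreted protein (log2 fold change -1.02), and Gadd45a, a stress-response protein (-0.91).

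Of the factors themselves, 31.6% were called, against 22.9% of all genes tested. Of 19 TEAD and VGLL factors and Hippo kinases, 5 were higher and 1 lower with YAP-TFE3 than with TFE3 (median log2 fold change -0.00). Over all genes tested, 14.3% were higher and 8.62% lower. The list shares Lats2 and Vgll3 with the list of targets. Tead1 (ENSMUSG00000055320; chromosome 7, 112679318 to 112906807), a TEAD factor that the study names, had 171, 161 and 160.5 CPM with EV, 163, 155 and 159 CPM with TFE3 and 263, 222 and 203 CPM with YAP-TFE3, a log2 fold change of 0.53 (SE 0.12, adjusted p = 0.0017). Vgll3, a cofactor of TEADs, went from 41.3, 36.6 and 40.8 CPM to 154, 100.1 and 102 CPM (1.59, adjusted p = 0.000142). The one that was lower was Amot, with a log2 fold change of -0.37 (adjusted p = 0.0326), which was not called when any 1 of the TFE3 libraries was left out (adjusted p = 0.0603 to 0.0999), nor without YAP-TFE3 replicate 1 or 2 (adjusted p = 0.117 and 0.0723). Wwtr1, which encodes TAZ, was not called (0.08, adjusted p = 0.605). Erbb3, which the study names, was not called either (adjusted p = 0.287).

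**Figure D4:**
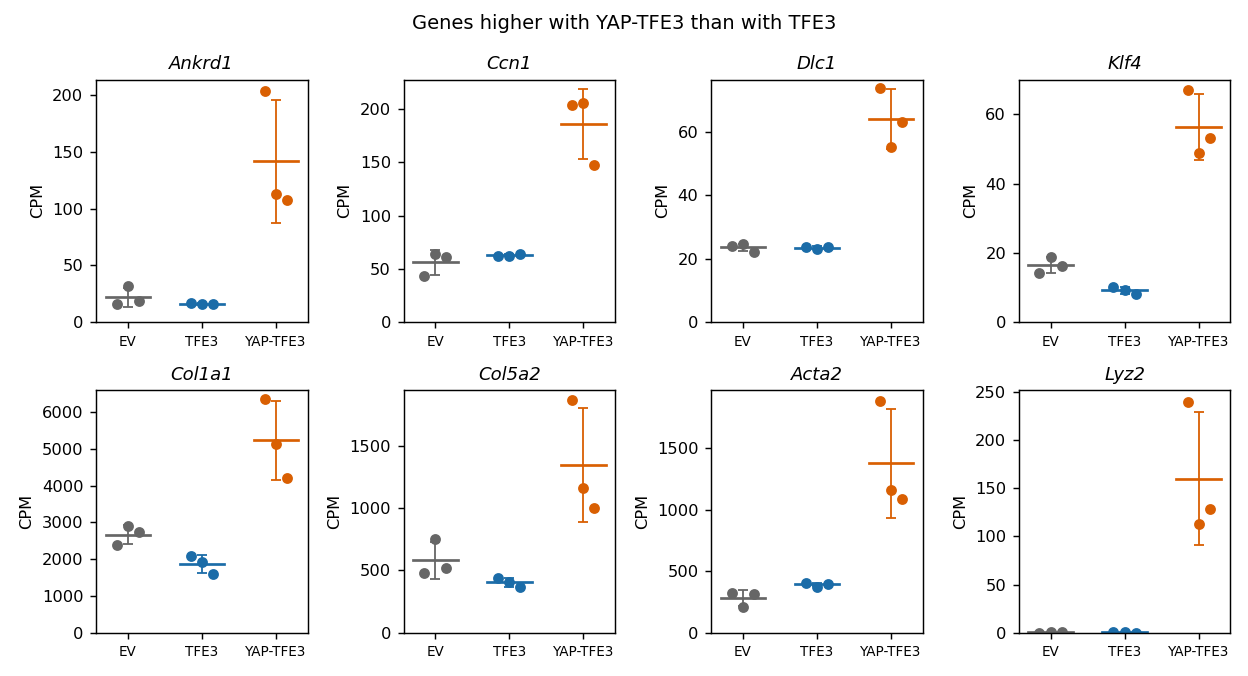
Each panel shows 1 gene in CPM on a linear axis from 0, with points for the 3 libraries of EV, TFE3 and YAP-TFE3 (replicates 1 to 3 from left to right), a line at the mean and a bar of 1 SD. In all 8 genes every YAP-TFE3 library is above every TFE3 and EV library, and replicate 1 is the highest of the YAP-TFE3 libraries in all but Ccn1.

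Collagen genes were higher with the fusion than with TFE3. Of 19 tested, 12 were higher and none lower with YAP-TFE3 than with TFE3 (none lower at an unadjusted p under 0.05 and none by DESeq2), with a median log2 fold change of 0.97. Against EV 9 rose with the fusion (median 0.37), and 1 rose and 1 fell with TFE3 (median -0.43). Col1a1 (ENSMUSG00000001506; chromosome 11, 94936224 to 94953042), a chain of type I collagen, had 2384, 2889 and 2725 CPM with EV, 2075, 1933 and 1593 CPM with TFE3 and 6345, 5132 and 4216 CPM with YAP-TFE3, a direct log2 fold change of 1.49 (SE 0.26, adjusted p = 0.000151). All YAP-TFE3 libraries were above all EV libraries and all TFE3 libraries below them. Col5a2, of type V collagen, had 478, 753 and 517 CPM, 436, 404 and 371 CPM and 1868, 1163 and 1003 CPM in the same order, a direct log2 fold change of 1.74 (SE 0.21, adjusted p = 2e-06). Col11a1 and Col8a1 had direct log2 fold changes of 1.87 and 1.40. The fall with TFE3 was in Col5a3, at 12.8, 13.8 and 12.03 CPM with EV and 7.73, 5.7 and 4.74 CPM with TFE3, and with YAP-TFE3 it had 18.6, 18.7 and 12.9 CPM. Col12a1, a collagen of the fibril surface, rose with both proteins (log2 fold changes 0.74 with TFE3 and 1.06 with YAP-TFE3).

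Of 25 other matrix proteins, 10 were higher and 2 lower with YAP-TFE3 than with TFE3 (median log2 fold change 0.37), and without YAP-TFE3 replicate 1 only 5 were higher. Eln (elastin) and Fbn1 (fibrillin-1), both of elastic fibres, had direct log2 fold changes of 2.99 and 1.06. Sparc and Thbs1 had 1.37 and 1.17, and the call for Thbs1 was lost without YAP-TFE3 replicate 1 (adjusted p = 0.0595). Spp1 (osteopontin) was lower, at 1365, 1425 and 1307 CPM with TFE3 and 535, 543 and 793 CPM with YAP-TFE3, and its call was lost without TFE3 replicate 1 or 2 and without YAP-TFE3 replicate 1 or 2 (adjusted p = 0.0544 to 0.0953). Vcan (versican) had a log2 fold change of -0.43 (adjusted p = 0.0403), which missed the threshold with the replicate block (adjusted p = 0.051), without any 1 of the TFE3 libraries (adjusted p = 0.067 to 0.116) and without YAP-TFE3 replicate 1 or 3 (adjusted p = 0.173 and 0.11). Of 18 contractile and actin cytoskeleton genes, 9 were higher and none lower (none lower at an unadjusted p under 0.05 and none by DESeq2), with a median of 0.42. Acta2 (ENSMUSG00000035783; chromosome 19, 34241090 to 34255590), smooth muscle alpha-actin, had 321, 212 and 317 CPM with EV, 408, 376 and 396 CPM with TFE3 and 1888, 1158 and 1091 CPM with YAP-TFE3, a direct log2 fold change of 1.81 (SE 0.23, adjusted p = 3.42e-06). Tpm1, Vcl and Cnn2, which encode a tropomyosin, vinculin and a calponin, had 0.84, 0.60 and 0.63. Tagln, often raised with Acta2 in myofibroblasts, was not called (-0.20, adjusted p = 0.676).

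Secreted signals also differed. Of 15 IGF and ERBB ligands, receptors and binding proteins, 7 were higher and 1 lower (median log2 fold change 0.34). The shares over all genes tested were 14.3% higher and 8.62% lower. Igfbp4 and Igfbp7 were higher by 2.42 and 2.05, and the EGF receptor ligands Ereg and Hbegf by 2.62 and 1.58. Igfbp5 (ENSMUSG00000026185; chromosome 1, 72857932 to 72874884) was lower with the fusion than with TFE3 but above EV, at 4.35, 12.3 and 6.42 CPM with EV, 93.02, 129.9 and 105 CPM with TFE3 and 29.1, 20.4 and 11.3 CPM with YAP-TFE3. Of 17 chemokines and cytokines, 8 were higher and 1 lower (median 1.28, against -0.81 for TFE3 minus EV and 0.46 for YAP-TFE3 minus EV). With at least 10 counts in every library, 9 members were left and their direct median was 0.46. Against EV, 4 members rose and 4 fell with YAP-TFE3. The summed level was 1740 to 2529 CPM with EV, 1170 to 1342 CPM with TFE3 and 1240 to 1418 CPM with YAP-TFE3, and the last 2 groups overlapped. Il6, an inflammatory cytokine, had 0.0894, 0.127 and 0.209 CPM with TFE3 and 3.91, 2.48 and 1.32 CPM with YAP-TFE3, and Cxcl1, a neutrophil chemokine, 0.224, 0.295 and 0.349 CPM and 3.46, 3.21 and 3.01 CPM. Csf1, the macrophage colony-stimulating factor, went from 225, 207 and 200.5 CPM with TFE3 to 636, 392 and 430.1 CPM with YAP-TFE3. Il33 was the member that was lower, at 28.1, 37.6 and 35.4 CPM and 6.57, 2.08 and 10.1 CPM.

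Of 27 interferon and antigen presentation genes, 8 were higher and 2 lower (median log2 fold change 0.55). For this and the following lists, the shares over all genes tested were 14.3% higher and 8.62% lower. Sp100, a nuclear body protein, and Bst2 (tetherin) had direct log2 fold changes of 3.11 and 1.93, and Stat2, a transcription factor of the interferon response, had 1.20. Of 23 ERK feedback and AP-1 genes, 4 were higher and 4 lower (median 0.18), with Epha2 at 1.17 and Dusp4 at -1.63. Among 22 amino acid and ATF4 genes 10 were higher and none lower (none lower at an unadjusted p under 0.05 and none by DESeq2), with a median of 0.48, and against EV 3 rose with the fusion and none was called with TFE3. Without YAP-TFE3 replicate 1 the direct count was 5. Chac1, a glutathione-degrading enzyme, and Trib3, a pseudokinase, both ATF4 targets, had 10.2, 7.68 and 6.38 CPM and 8.81, 8.69 and 7.25 CPM with TFE3 and 47.2, 32.8 and 31.9 CPM and 44.03, 27.5 and 24.03 CPM with YAP-TFE3. Of 20 glycolysis and hypoxia genes, 8 were higher and 3 lower (median 0.40), and without YAP-TFE3 replicate 1 only 4 were higher. P4ha1, a prolyl hydroxylase for collagen, and Pfkp, a phosphofructokinase, had direct log2 fold changes of 1.19 and 1.11, and Hk2 and Hk1, which encode hexokinases, were lower. The call for Hk1 was lost without any 1 of the TFE3 libraries and without YAP-TFE3 replicate 1 or 2 (adjusted p = 0.0585 to 0.0736). Of 14 NRF2 antioxidant genes, 4 were higher and none lower (none lower at an unadjusted p under 0.05 and none by DESeq2; median 0.22), with Nqo1 at 1.21.

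**Figure D5:**
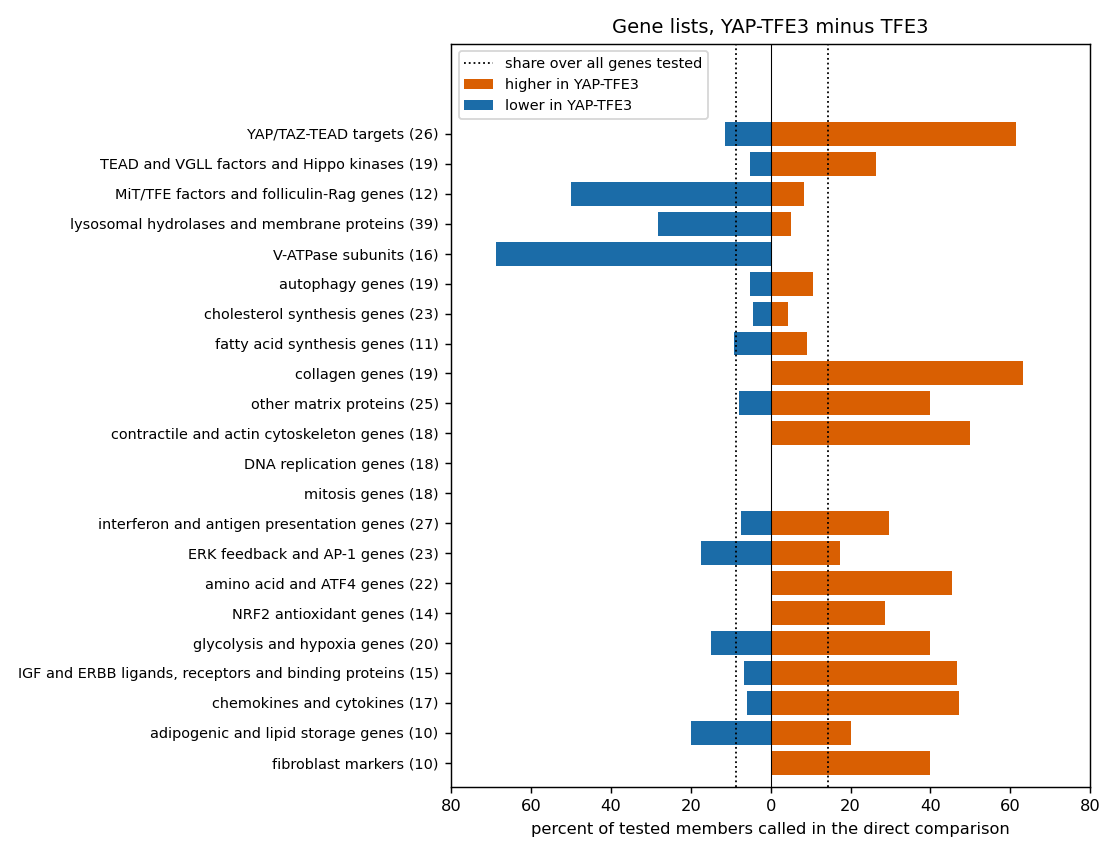
Bars give the percent of the tested members of each gene list (number in parentheses) that were called higher (right) or lower (left) with YAP-TFE3 than with TFE3, and dotted lines give the same over all genes tested, 14.3% higher and 8.62% lower. Lists with at least 10 tested members are drawn, and those with the widest bars to the right are the collagen genes (12 of 19) and YAP/TAZ-TEAD targets (16 of 26), and to the left the V-ATPase subunits (11 of 16) and the MiT/TFE and folliculin-Rag genes (6 of 12).

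Genes that the fusion added as lower were led by Prl2c2 (ENSMUSG00000079092; chromosome 13, 12996125 to 13005383), a proliferin, at 857, 455 and 984 CPM with EV, 1254, 1370.0 and 1547 CPM with TFE3 and 83.6, 141 and 315 CPM with YAP-TFE3. Its direct log2 fold change was -2.95 (SE 0.43, adjusted p = 2.21e-05), and the mouse genome holds near-identical copies that may have shared its reads. Megf10, an engulfment receptor, had 37.5, 25.7 and 43.8 CPM with EV, 61.3, 60.8 and 56.2 CPM with TFE3 and 8.78, 5.86 and 12.5 CPM with YAP-TFE3. Slc30a1, a zinc exporter of the plasma membrane, had 35.6, 29.1 and 31.2 CPM with TFE3 and 4.86, 8.04 and 6.96 CPM with YAP-TFE3. The remaining 6 largest falls beside Il33 ran from -2.71 for Aspg to -2.03 for Pgbd5, with Rnase1, Tcim, Wfdc3 and Plppr3 between them, the last of which overlaps Ptbp1 on the other strand.

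Extended effects were few but included large ones. Mgam (ENSMUSG00000068587; chromosome 6, 40628831 to 40769123), the maltase-glucoamylase of the intestinal brush border, had 0.127, 0.716 and 0.177 CPM with EV, 1.83, 1.73 and 1.95 CPM with TFE3 and 121, 71.7 and 69.8 CPM with YAP-TFE3, a direct log2 fold change of 5.57 (SE 0.35, adjusted p = 4.19e-10). Abcc2, an export pump for conjugated compounds, and Nrcam, a neuronal adhesion molecule, had 0.849, 1.01 and 0.593 CPM and 0.268, 0.253 and 0.349 CPM with TFE3 and 10.7, 5.59 and 4.2 CPM and 8.27, 3.62 and 4.12 CPM with YAP-TFE3. In the other direction, Runx1, a Runt-domain transcription factor, and Arhgap28 fell with TFE3 and further with the fusion, with direct log2 fold changes of -0.44 and -0.62. The call for Runx1 was lost without YAP-TFE3 replicate 1 (adjusted p = 0.0674).

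The genes with a direct difference alone had smaller changes, with median log2 fold changes of 0.59 for the 717 that were higher and -0.49 for the 634 that were lower. Their median log2 fold changes against EV were 0.30 with YAP-TFE3 and -0.30 with TFE3 for the first and -0.25 and 0.24 for the second. Clec3b (tetranectin), Serpina3g (a serine protease inhibitor) and Srpx2 had the largest rises of the abundant genes, at 2.08, 2.06 and 1.92, and Syngr1 (synaptogyrin), the mitochondrial tRNA gene mt-Te and Dio2 (a thyroid hormone deiodinase) the largest falls, at -2.09, -1.62 and -1.50. Syngr1 overlaps Rpl3 on the other strand, and the call for Srpx2 was lost without YAP-TFE3 replicate 1 (adjusted p = 0.0593). That for mt-Te was lost without TFE3 replicate 2 (adjusted p = 0.0728) and without YAP-TFE3 replicate 3 (adjusted p = 0.0754).

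The growth genes listed were not called directly. None of 18 DNA replication genes was called, with 0 higher and 4 lower at an unadjusted p under 0.05 and 1 lower by DESeq2, and the median log2 fold change was -0.18. None of 18 mitosis genes was called, with 1 higher at an unadjusted p under 0.05 and none by DESeq2, and the median was 0.36. For 11 mitosis genes every YAP-TFE3 library was above every TFE3 library, and for 0 every one was below. For DNA replication genes these numbers were 4 and 7. Over all genes tested, 27% lay above and 22.1% below in this way. Of 10 adipogenic and lipid storage genes, 2 were higher and 2 lower, against 14.3% and 8.62% over all genes tested. Of 10 fibroblast markers, which share 3 genes with the collagen list, 4 were higher. Among them was Thy1, at 34.2, 34.7 and 31.6 CPM with TFE3 and 145, 83.8 and 91.8 CPM with YAP-TFE3.

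Motif shares, introduced above with the sequences, are given here by class. TCACGTG was in the windows of 24.3% of the 148 missing rises that had one, 14.4% of the 493 genes with a direct difference alone that were lower with the fusion, and 3.48% of the 920 added genes that were higher, against 5.74% over all. GGAATG was in 20.3% of those 920 added genes, 12.2% of the 148 missing rises and 13.0% over all. Shared genes were divided by the sign of their direct difference, which was not called. GGAATG was in 3 of 34 windows where the fusion lay above TFE3 and in 9 of 27 where it lay below. By list, TCACGTG was held by 11 of 30 lysosomal genes, 2 of 11 V-ATPase subunits, 2 of 12 MiT/TFE and folliculin-Rag genes, 3 of 16 cholesterol synthesis genes and none of 16 collagen genes. GGAATG was held by 9 of 17 YAP/TAZ-TEAD targets, 3 of 16 collagen genes, 2 of 11 V-ATPase subunits, 1 of 12 MiT/TFE and folliculin-Rag genes and none of 16 cholesterol synthesis genes. Of 36 turned genes that had risen with TFE3, 10 held CACGTG and 4 the longer form. These shares are descriptions of a 250-base window, with no test, and say nothing of sites farther from the start.

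Markers of other cell types were examined beside these results. Of 11 myeloid markers 6 were tested and 3 were higher with YAP-TFE3 than with TFE3: Lyz2, Cd14 (2.01, 2.41 and 2.2 CPM and 7.32, 5.89 and 6.71 CPM) and Csf1r (0.581, 0.464 and 0.558 CPM and 1.45, 1.21 and 1.61 CPM), the last of which was lost when any 1 of the TFE3 libraries was left out, and without YAP-TFE3 replicate 1 or 3 (adjusted p = 0.0611 to 0.0918). No tested myeloid marker was called lower, but 1 was lower at an unadjusted p under 0.05. For 1 tested marker every YAP-TFE3 library was below every TFE3 library. The summed level of the 6 tested members was 6.42 to 8.31 CPM in EV, 8.74 to 9.62 CPM in TFE3 and 124 to 252 CPM in YAP-TFE3. In the last of these groups nearly all of it was Lyz2. The defining markers Ptprc, Adgre1, Spi1, Tyrobp and Fcer1g were below the limit of 5 counts on average in these libraries. Of 7 endothelial markers 4 were tested and 1 was higher (Cdh5), and of 7 epithelial markers 1 was tested and was higher (Cdh1, 0.358, 0.127 and 0.244 CPM and 0.853, 0.77 and 0.34 CPM, with groups that overlapped and no call by DESeq2 or without YAP-TFE3 replicate 1, adjusted p = 0.062 and 0.0939). The summed level of the 4 tested endothelial markers was low, at 2.91 to 5.44 CPM in EV, 2.73 to 3.21 CPM in TFE3 and 3.42 to 5.22 CPM in YAP-TFE3. Cdh5 had no value where at least 10 counts were required in every library. None of the 5 lymphoid markers reached the count limit, so none was tested. Of these, 2 had no count in any of the 9 libraries of EV, TFE3 and YAP-TFE3.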

How the data were processed

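Poly(A) RNA of NIH 3T3 cells was sequenced in 8 groups of 3 libraries, and all 24 libraries entered the fit. The deposited files hold raw counts per Ensembl gene, which the authors made with bcbio-nextgen from paired reads aligned to mm10. The study's methods name a stranded library kit, Hisat2 alignment and, apart from it, Salmon with tximport for gene-level counts. Which of these gave the deposited whole-number counts, and with which strand setting, is not given in the sources used here, so overlapping genes and near-identical copies may share reads. A gene was kept where its counts averaged 5 or more over the 24 libraries. edgeR 4.0.16 in R 4.3.3 was used for TMM scaling, a quasi-likelihood fit with 1 coefficient per group (16 residual degrees of freedom) and contrasts, with Benjamini-Hochberg adjustment over all genes and a threshold of 0.05. CPM are counts scaled to a TMM-normalized total of 1000000. Folds against groups at or under the floor of 3 counts per library were taken against that floor and cover counting error only. Genes named by class averaged 50 or more counts over the 6 libraries. Except for shared effects, their groups did not overlap, and they had the largest direct difference in each direction. Shared genes were ranked by the smaller of the absolute log2 fold changes of YAP-TFE3 and TFE3 against EV. List members described as examples were chosen with their values seen. Members and lists were chosen with earlier results of these data known. The computation was tested on simulated counts. Alternatives were DESeq2 1.42.0, its size factors, other filters, other samples in the fit, a replicate block and leaving out each library. Some genes are not reported here. Promoters came from RefSeq (GRCm38.p6), matched by symbol.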

Additional observations from a re-analysis of the deposited data

How the results depend on the processing

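No gene named by rule or in the text that had a call changed direction under an alternative that gave it a value. The median log2 fold change over all genes tested, 0.02, lay between -0.02 and 0.02. Of 28 gene lists, 5 had a median that changed sign: without YAP-TFE3 replicate 1 it was 0.12 for cholesterol synthesis genes (reported -0.04) and -0.11 for adipogenic genes (reported 0.16), without TFE3 replicate 1 it was 0.16 for cholesterol synthesis genes, and the other changes were in medians within 0.04 of 0. Motif shares were not recomputed. The direct comparison gave 4952 genes with only the 2 groups in the fit and 1179 where a change of at least 1 on the log2 scale was asked for as well, and 53.1% to 66.5% of the calls were higher with YAP-TFE3 over the other alternatives. DESeq2 gave 109 turned genes and 17 lower lysosomal genes. With no filter on low counts 29 genes were extended and 130 shared, and with at least 10 counts in every library 4 were extended and 4 chemokines and cytokines were higher. With only the groups compared in each fit, 1512 genes were called between TFE3 and EV, with 63 extended, 185 turned, 777 missing, 199 shared and 2258 direct differences alone, and 22 lysosomal genes were lower. With only EV, TFE3 and YAP-TFE3 in the fit, 3493 genes were called between YAP-TFE3 and EV and 1140 between TFE3 and EV, with 33 extended, 217 turned, 574 missing and 197 shared, and again 22 lysosomal genes lower.

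Leaving out each EV, TFE3 or YAP-TFE3 library in turn gave 2199 to 3303 genes between YAP-TFE3 and TFE3, 1133 to 2266 between YAP-TFE3 and EV and 192 to 476 between TFE3 and EV. The classes ranged from 852 to 1625 added, 4 to 15 extended, 28 to 65 turned, 107 to 278 missing, 29 to 77 shared and 902 to 1818 direct differences alone. Higher list members were 12 to 16 for YAP/TAZ-TEAD targets, 9 to 13 for collagen genes, 5 to 11 for other matrix proteins, 7 to 9 for contractile genes, 5 to 11 for amino acid and ATF4 genes, 6 to 9 for chemokines and cytokines, 4 to 8 for glycolysis and hypoxia genes and 6 to 8 for interferon genes. Lower members were 8 to 10 for lysosomal genes, 9 to 10 for V-ATPase subunits and 5 to 6 for MiT/TFE and folliculin-Rag genes. Without YAP-TFE3 replicate 1, 1133 genes were called between YAP-TFE3 and EV, 852 were added, 34 turned and 46 shared. Without EV replicate 3, 1449 were called between YAP-TFE3 and EV. Calls between TFE3 and EV numbered 286, 283 and 227 without EV replicates 1, 2 and 3 and 274, 199 and 192 without TFE3 replicates 1, 2 and 3. In the same order, turned genes numbered 31, 33 and 29 and 38, 28 and 31. Extended genes numbered 7 and 4 without EV replicates 1 and 3 and 6, 5 and 5 without TFE3 replicates 1, 2 and 3. Shared genes numbered 32 without EV replicate 3 and 50, 30 and 29 without the TFE3 replicates.

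Same-numbered libraries of YAP-TFE3 and TFE3 did not deviate together (correlations of -0.065, 0.053 and -0.085), so the numbers do not pair them. With the replicate number as a block the direct comparison gave 3204 genes, and no count of a class or list moved by over 1.5 times. Of the 160 genes named by rule or list, 146 were called directly, 75 under every alternative, and the largest loss was from the count limit of 10, which left 52 without a value. Of 36 other genes the text names, 20 were called directly and 17 of them under every alternative. The cause of these changes was not tested beyond the smaller number of genes or samples. Spread between 3 libraries limits small differences, and genes under the count limit were not assessed.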
